A study of Mus musculus with 9 samples.

Results

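Mammospheres that were induced to differentiate in serum (diffMMS, 3 arrays) were compared with mammospheres kept in stem cell medium (MMS, 3 arrays), which are 6 of the 9 arrays of the series. The members were taken by their labelled sample type alone, and all 22626 probe sets that are not array controls were described, 12393 genes among them by 1 probe set each. Mammospheres are non-adherent spheres grown from the mammary glands of young adult virgin female mice of the FVB/N strain, passaged every 7 days and harvested between passages 3 and 5. For diffMMS, cells of dispersed mammospheres were plated on rat tail collagen and held for 7 days in medium containing serum. The remaining 3 arrays hold tumorspheres (TMS), which were grown in the stem cell medium from Her2/Neu transgenic tumors of the mammary gland. Their values are shown only beside those of some genes and gene lists. The TMS arrays also entered the normalization and the fit, in which the 3 groups share 1 spread per probe set, and so bear on every call. Neither mammosphere group carries a transgene. The study used MMS and diffMMS as approximate models of mammary stem and progenitor cells and of differentiated mammary epithelial cells, and it describes the RNA of the 3 arrays of a group as coming from independent cell populations.

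The mammary gland is a bilayered epithelium of luminal cells, which make milk, and basal contractile cells, surrounded by a stroma of fibroblasts, fat, vessels and immune cells. Sphere culture without attachment favors cells that survive and divide without anchorage, and the return to a collagen surface and serum lets cells spread, pull on the substrate and receive the growth factors of serum. Medium, attachment, collagen and time changed together between the groups, so that their parts cannot be told apart. Each array measured the RNA of a whole culture, in which fewer cells of a type and less RNA per cell cannot be told apart either.

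Values are log2 intensities of a probe set after quantile normalization, on which the median probe set lay at 6.57 and the middle 50 percent between 5.57 and 7.60. Arrays are named by their codes, in the order 858A, 859A and 860A for MMS and 861A, 862A and 863A for diffMMS. A difference is called where limma's adjusted p over all probe sets was under 0.05, and a fold change is on the scale of log2 of intensity plus 8.64. Spearman correlations between arrays were 0.995 to 0.996 within MMS, 0.990 to 0.995 within diffMMS and 0.950 to 0.965 between the groups. The bacterial spike controls and 18S ribosomal RNA stood higher on diffMMS arrays 861A and 863A than on 862A and the MMS arrays, and their part in the results was not tested. The bioB control, for example, was at 6.97 to 7.40 in MMS, 7.46 on 862A and 8.27 and 8.56 on 861A and 863A. Counts are therefore also given with 862A alone (as the lone diffMMS array, whose spread is then assumed to be that of the other groups), for the lists named below where a count of 5 or more moved by over 1.5 times.

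Many genes differed between the groups, in both directions to a like extent. Of 22626 probe sets, 3664 were higher in diffMMS (16.2%) and 3831 were lower (16.9%). Among 12393 genes, 2229 were higher (18.0%) and 1991 were lower (16.1%), with a median log2 fold change of 0.05 over all genes. These 2 shares are the measure for the counts of every list below. With each array centred on its median in place of quantile normalization, 2875 probe sets were higher and 4691 lower. With only the 6 MMS and diffMMS arrays normalized and fitted, 4172 probe sets were higher and 4229 lower. Changes of 1 or more on the log2 scale were found for 205 genes that were higher (1.65%) and 264 that were lower (2.13%). With 862A as the lone diffMMS array these counts were 205 and 252, while the calls of any size fell to 1417 probe sets higher and 1772 lower. Without MMS array 859A or 860A, 2315 or 2332 probe sets were higher.

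**Figure D1:**
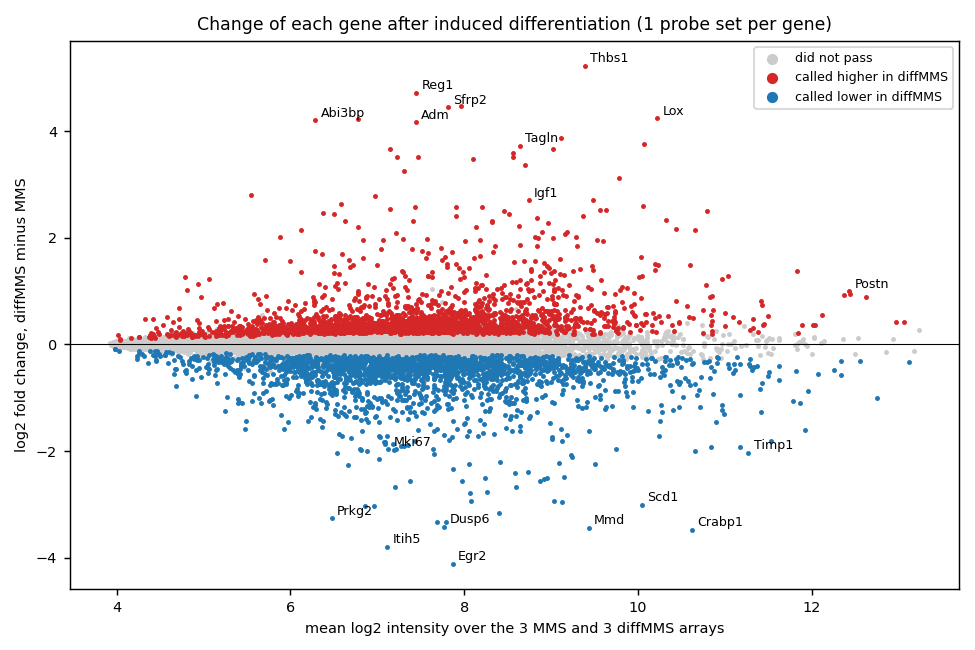
Log2 fold change of each of 12393 genes (diffMMS minus MMS) against its mean log2 intensity over the 6 arrays. Red and blue points passed the adjusted p of 0.05 and grey points did not; the named genes run from Thbs1 at 5.23 to Egr2 at -4.11.

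The largest rise was that of Thbs1. Thbs1, which encodes thrombospondin 1, a matrix glycoprotein that activates latent TGF-beta, had log2 intensities of 6.38, 7.02 and 6.92 in MMS and 11.62, 12.15 and 12.25 in diffMMS. The groups lay far apart, by 37.6-fold (log2 fold change 5.23, standard error 0.210, adjusted p = 8.7e-09), and a further Thbs1 probe set gave 5.50. Lox, the lysyl oxidase that cross-links collagen and elastin, rose from 8.11, 8.10 and 8.10 to 12.37, 12.28 and 12.39. Its other probe sets gave 4.14 and 0.60, both called. Reg1, a secreted lectin-like growth factor best known from the pancreas, was at 5.06, 5.13 and 5.07 in MMS and at 9.96, 9.92 and 9.53 in diffMMS. TMS lay at 8.44 to 9.08 for Thbs1, between the mammosphere groups, and at 4.88 to 5.10 for Reg1, level with MMS.

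Among the other 12 of the 15 largest rises, 6 encode matrix proteins or enzymes that act on matrix. These were Abi3bp (4.21), the matricellular protein Ccn3 (3.76), Col12a1 (3.68), the small proteoglycans Aspn (3.67) and Ogn (3.53) and the aggrecan-cleaving protease Adamts5 (3.60). The secreted Wnt antagonist Sfrp2 rose by 4.45, the pattern recognition protein Ptx3 by 4.23, the vasodilator peptide Adm by 4.17, the granule protein Scg2 by 4.48, the xenobiotic and estrogen oxidizing enzyme Cyp1b1 by 3.87 and the actin-binding protein Tagln by 3.73. Standard errors of these 12 genes ran from 0.0945 to 0.271. That no MMS array reached a diffMMS array was a condition of their choice. The TMS arrays lay below the lowest diffMMS array for all 15 largest rises, an order favored by choosing genes for high diffMMS values.

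The largest fall was that of Egr2. Egr2, an early response transcription factor, was at 9.99, 9.96 and 9.83 in MMS and at 5.90, 5.77 and 5.76 in diffMMS, a fall of 4.11 on the log2 scale or 17.3-fold (standard error 0.169, adjusted p = 9.25e-09), and a further probe set gave -3.61. Crabp1, a cytosolic carrier of retinoic acid, went from 12.37, 12.31 and 12.39 to 8.94, 8.95 and 8.76. Dusp6, the phosphatase that switches off ERK, went from 9.51, 9.58 and 9.35 to 6.02, 5.94 and 6.21. For each of these genes all 3 diffMMS arrays lay more than 3 units below all 3 MMS arrays.

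The other 12 of the 15 largest falls lay between -3.80 and -2.93. They were the hyaluronan-binding protein gene Itih5 (-3.80), Mmd (-3.44), the kinases Prkcb (-3.34) and Prkg2 (-3.26), the platelet-activating factor hydrolase Pla2g7 (-3.33), the angiotensin receptor Agtr2 (-3.17), the ligand Wnt2 (-3.03), the chemokine Ccl12 (-3.03), the fatty acid desaturase Scd1 (-3.01), the phosphate transporter Slc20a1 (-2.95), the Toll-like receptor accessory gene Tril (-2.93) and the surface protein gene Tm4sf1 (-2.93). The second probe set of Prkg2 gave -0.34 and that of Tm4sf1 -0.23, both called. All 15 genes were higher in each TMS array than in any diffMMS array, an order favored by choosing genes for low diffMMS values.

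**Figure D2:**
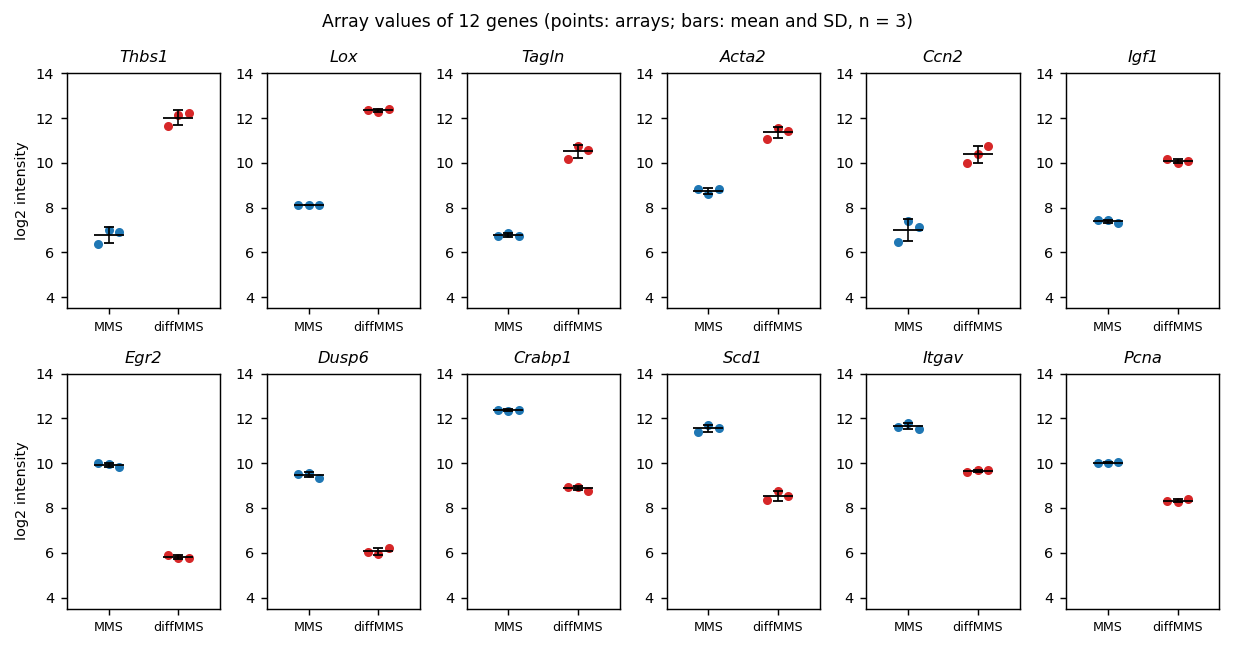
Log2 intensity of 12 genes in each of the 3 MMS (blue) and 3 diffMMS (red) arrays, with means and SDs over 3 arrays drawn as bars. The upper 6 genes rose and the lower 6 fell. Thbs1 moved from a mean of 6.77 to 12.01 and Egr2 from 9.92 to 5.81.

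Genes that define mammary epithelium did not rise as a group. Mean log2 intensity of 22 luminal genes was 5.88 to 6 in MMS, 5.88 to 5.99 in diffMMS and 7.34 to 7.71 in TMS. For 18 basal genes it was 5.93 to 5.99 in MMS, 6.06 to 6.15 in diffMMS and 6.2 to 6.36 in TMS. In MMS and diffMMS both means lay below the median probe set (6.57), and dim probe sets may hold mostly background. Of 22 luminal genes 3 were higher in diffMMS and none lower, with a median of -0.04, and of 18 basal genes 5 were higher and 1 was lower (2 and 1 with 862A alone), with a median of 0.16, beside 18.0% higher and 16.1% lower over all genes. Krt18, a keratin of luminal cells, was at 5.58, 5.94 and 6.27 in MMS, at 5.29, 5.54 and 5.66 in diffMMS and at 9.79 to 10.66 in TMS. The mammosphere groups overlapped for Krt18, as they did for Krt8 (log2 fold change -0.05), the adhesion molecule Epcam (-0.23), the surface glycoprotein Cd24a (-0.13), the transcription factors Gata3 (0.07) and Elf5 (-0.06), and the epithelial cadherin Cdh1 (-0.06). The TMS arrays lay above every MMS and diffMMS array for each of these 7 genes. In the fit of only the 6 arrays, which leaves out the spread of TMS, Krt18 was called lower (-0.43). Over the other settings up to 3 luminal genes were lower.

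The 3 luminal genes that rose were Cldn3 (0.57), Krt19 (0.39) and Elf3 (0.34). None of them was called with 862A as the lone diffMMS array. The basal keratin gene Krt14 had a log2 fold change of -0.01 and Krt5 of 0.19 (adjusted p = 0.0758), while Dst, a linker of keratin to hemidesmosomes, rose by 1.07, with further probe sets at -0.13, 0.28 and 0.82. Trp63, the master regulator of basal cells, rose by 0.32 with 1 probe set (adjusted p = 0.0076), and its others gave -0.05 and 0.05. The basal integrin gene Itga6 fell by 1.15.

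Most milk genes did not pass the test. Csn2, the beta-casein gene, was at 5.79, 5.93 and 5.80 in MMS and 5.96, 5.86 and 5.75 in diffMMS. Csn3, the kappa-casein gene, was at 7.22, 7.91 and 8.37 in MMS and 6.72, 6.36 and 6.67 in diffMMS, a fall of 1.25 on the log2 scale (standard error 0.217, adjusted p = 0.000986), while TMS lay at 12.88 to 13.06. Its second probe set gave -0.08 and did not pass. Of 16 milk and secretion genes 1 was higher and 2 were lower, beside 18.0% and 16.1% over all genes. Ltf rose by 0.27, a call lost in 9 of 17 other settings, and Csn3 and Mfge8 (-0.56) fell. The lineage labels of differentiated epithelium were thus mostly not higher in diffMMS, and the group is called by its label alone.

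Stromal genes moved in both directions. Col1a1, a chain of the main fibrillar collagen, was at 12.19, 12.19 and 12.16 in MMS, at 13.06, 13.20 and 12.97 in diffMMS and at 11.81 to 12.12 in TMS. It rose by 0.89, as did Col3a1 by 0.43 (1.44 with a second probe set), the receptor Pdgfra by 1.04 and the surface protein gene Thy1 by 1.42. Other stromal genes fell, among them Cd34 (-2.56), the proteoglycan gene Lum (-1.82), Fap (-1.04) and Dcn (-0.50). Of 18 fibroblast genes, 7 were higher and 4 lower (8 and 8 with arrays centred on the median), beside 18.0% and 16.1% over all genes. Their mean log2 intensity was 9.82 to 9.88 in MMS, 9.79 to 9.88 in diffMMS and 9.47 to 9.63 in TMS. Of 18 genes of epithelial to mesenchymal transition, 4 rose and 5 fell (4 and 2 with 862A alone). Vim, the intermediate filament of mesenchymal cells, fell by 0.58, and the transcription factor gene Snai2 by 0.28, while Cdh2, the neural cadherin gene, rose by 0.79 and Sparc by 0.95.

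**Figure D3:**
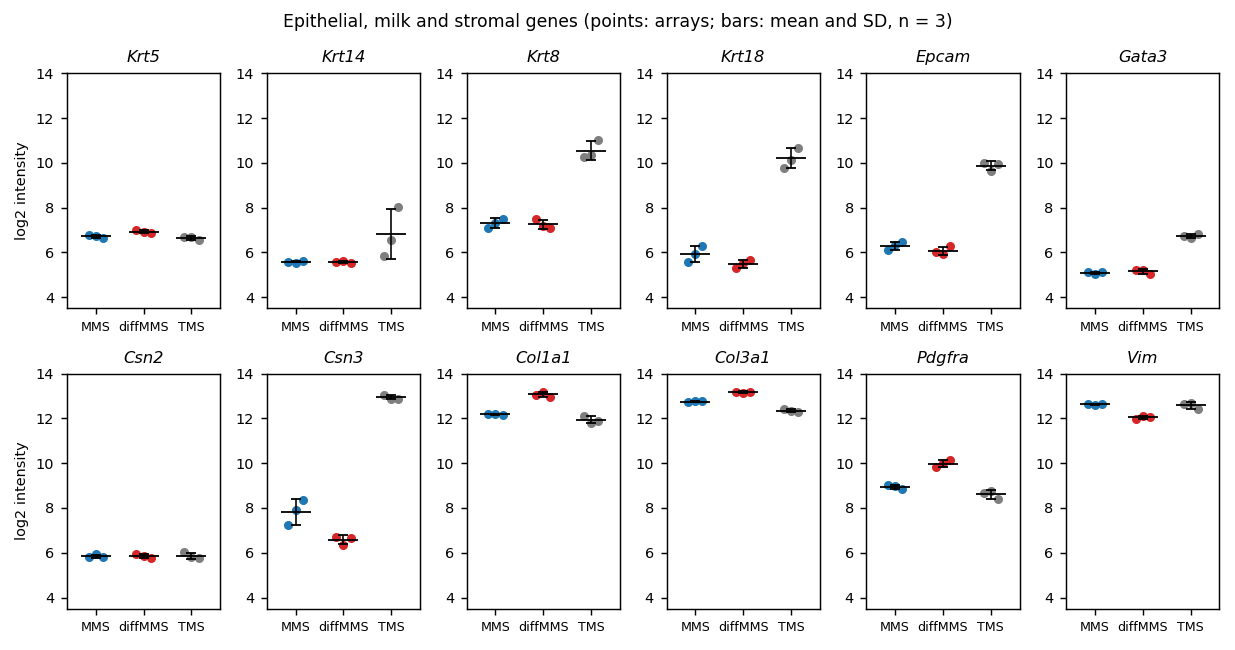
Log2 intensity of 6 epithelial, 2 milk and 4 stromal genes in each MMS (blue), diffMMS (red) and TMS (grey) array, with group mean and SD (n = 3). Krt8, Krt18, Epcam and Gata3 are highest in TMS and overlap between MMS and diffMMS, while Col1a1, Col3a1 and Pdgfra are highest in diffMMS.

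Junction and stem cell genes are given beside 18.0% higher and 16.1% lower over all genes. Of 27 genes of epithelial junctions 7 were higher, none by more than 0.57, and 2 were lower, Dsp (-1.44), the desmosomal linker, and Cldn1 (-1.35), a tight junction protein. With arrays centred on the median the counts were 3 and 3, and with 862A alone 2 and 2. Of 21 stem and progenitor markers 8 were higher and 4 lower, and with 862A alone 4 and 3. The drug efflux transporter Abcg2 fell from 7.26, 7.28 and 7.33 to 5.75, 6.23 and 6.17, and Itga6, Cd44 (-0.66) and the Polycomb gene Bmi1 (-0.70) fell as well. The largest rises among these markers were Aldh1a1 (0.89), a retinal-oxidizing enzyme, Eng (0.57) and Lgr5 (0.56).

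Most genes of cell division fell. Of 29 genes of mitosis and the spindle, 27 were lower in diffMMS and none was higher, with a median of -0.91, and of 34 genes of DNA replication 29 were lower and none higher, with a median of -0.52. Mki67, the gene of the proliferation antigen Ki67, was at 8.08, 8.19 and 8.04 in MMS and at 6.22, 6.07 and 6.14 in diffMMS (log2 fold change -1.96, standard error 0.0840, adjusted p = 1.2e-08). Pcna, the sliding clamp of the replication fork, went from 10.01, 10.01 and 10.07 to 8.30, 8.28 and 8.41. The survivin gene Birc5 fell by 1.99, the topoisomerase gene Top2a by 1.80, Mcm5 and Mcm6 of the replicative helicase by 1.61 and 1.41, and Cdk1, the kinase that drives mitosis, by 1.06.

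The medians of the mitotic genes against the MMS mean were -0.91, -0.85 and -0.87 on 861A, 862A and 863A, so that the 3 diffMMS arrays lay close together. The genes of this list that did not pass were Kif2c, whose main probe set gave -0.13 but whose others gave -1.11, -0.60 and 0.17, and Cenpe. Among replication genes Fen1, Tyms, Ccne1, Mcm10 and Rfc2 did not pass. With 862A as the lone diffMMS array 26 mitotic and 26 replication genes were lower.

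Promoters of cell cycle genes are known to carry the CCAAT box bound by NF-Y, the cell cycle homology region (CHR) and E2F sites, and they are shown here because these lists moved together. The letters CCAAT were found on either strand in the promoters of 20 of 25 mitotic genes with a RefSeq promoter (80.0%). The share was 41.1% over all 27025 genes with such a promoter. That set, used for each motif, includes genes that the array did not measure. TTTGAA, the core of the CHR, was found for 21 of 25 (84.0%, beside 20.2%). TTTNNCGC, a form of the E2F site, was found for 12 of 28 replication genes (42.9%, beside 5.93%). The windows searched span 250 bases before to 50 after the start in GRCm38.p6, and a match of letters is not evidence of binding. Shown are the 250 bases before the start of 2 genes of each list that fell by more than 1 and hold the motifs, with CCAAT and TTTGAA in capitals for Mki67 and Top2a and TTTNNCGC in capitals for Mcm5 and Mcm6, on either strand.
Mki67, chr7:135716380-135716629, minus strand: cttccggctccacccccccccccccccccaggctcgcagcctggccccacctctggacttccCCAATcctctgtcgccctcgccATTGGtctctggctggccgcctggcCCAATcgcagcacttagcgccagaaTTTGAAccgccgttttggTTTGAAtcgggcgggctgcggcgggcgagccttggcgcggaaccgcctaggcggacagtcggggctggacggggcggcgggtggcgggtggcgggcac
Top2a, chr11:99024190-99024439, minus strand: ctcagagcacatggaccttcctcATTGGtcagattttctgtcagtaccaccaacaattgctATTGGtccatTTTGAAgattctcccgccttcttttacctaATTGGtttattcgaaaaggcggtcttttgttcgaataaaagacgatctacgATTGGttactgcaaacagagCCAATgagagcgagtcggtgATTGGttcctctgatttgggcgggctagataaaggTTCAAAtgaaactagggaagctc
Mcm5, chr8:75109259-75109508, plus strand: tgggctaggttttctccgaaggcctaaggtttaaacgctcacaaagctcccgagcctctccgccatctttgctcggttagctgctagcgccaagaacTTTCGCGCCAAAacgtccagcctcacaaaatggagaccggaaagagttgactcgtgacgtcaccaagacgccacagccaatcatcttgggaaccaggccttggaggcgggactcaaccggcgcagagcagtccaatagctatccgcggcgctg
Mcm6, chr1:128359706-128359955, minus strand: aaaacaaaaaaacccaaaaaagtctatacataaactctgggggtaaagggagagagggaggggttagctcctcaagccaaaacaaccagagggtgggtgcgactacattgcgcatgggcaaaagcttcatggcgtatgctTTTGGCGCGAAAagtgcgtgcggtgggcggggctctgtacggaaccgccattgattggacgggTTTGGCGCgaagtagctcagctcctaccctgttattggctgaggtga
The Mki67 promoter holds 3 CCAAT boxes and 2 CHR matches and that of Top2a 6 and 2, none of which overlap. The Mcm5 promoter holds 2 E2F matches and that of Mcm6 holds 3, and in each a pair overlaps on opposite strands.

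Of 23 regulators of entry into the cycle 6 were higher and 5 lower (5 and 3 with 862A alone), shares near the 18.0% and 16.1% over all genes. Ccnd1, encoding cyclin D1, which carries growth factor signals to the cycle, went from 9.98, 9.74 and 9.96 to 8.22, 8.11 and 8.05, and its partner kinase gene Cdk4 fell by 0.75. Gadd45g, a stress gene that restrains the cycle, rose from 5.70, 5.68 and 5.64 to 7.87, 7.76 and 8.03, and Gadd45b rose by 1.15. The inhibitor gene Cdkn1b rose by 0.27, while Cdkn2d fell by 0.86. For Cdkn1a, the p21 gene, the log2 fold change was -0.35, and the call was lost in 5 other settings.

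Genes of the contractile apparatus rose together. Of 20 smooth muscle contractile genes 15 were higher in diffMMS and 1, Smtn (-0.51), was lower, with a median of 0.43. Tagln, the smooth muscle actin-binding protein SM22, went from 6.71, 6.87 and 6.75 to 10.18, 10.77 and 10.58, or 13.3-fold. Acta2, the smooth muscle actin gene, went from 8.83, 8.60 and 8.83 to 11.08, 11.56 and 11.43, and another Acta2 probe set gave 0.11. Myosin genes followed, with Myl9, the regulatory light chain, at 3.26 and its kinase Mylk at 1.98, and calponins with Cnn2 at 1.41 and Cnn1 at 0.83. Of the late smooth muscle genes, Myh11 rose by 0.19 and was lost as a call in 4 settings, and Des did not pass (0.16). With arrays centred on the median, 10 genes of the list were higher and 2 lower.

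Targets of YAP and SRF, the factors that report tension in the actin skeleton, shared this direction. Of 17 measured, 10 were higher and none lower, with a median of 0.53. Ccn2, or connective tissue growth factor, was at 6.48, 7.42 and 7.14 in MMS and at 9.99, 10.40 and 10.75 in diffMMS, so that MMS array 858A was lowest and the groups lay 10.3-fold apart. Its relative Ccn1 rose by 2.51, Amotl2, a YAP inhibitor that is itself a target, by 2.45 and the tissue factor gene F3 by 2.31. Actb (0.10) and Actg1 (-0.18), the cytoplasmic actin genes, and Srf itself (0.06) did not pass. Lists of contractile and YAP or SRF genes share Vcl and Flna.

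**Figure D4:**
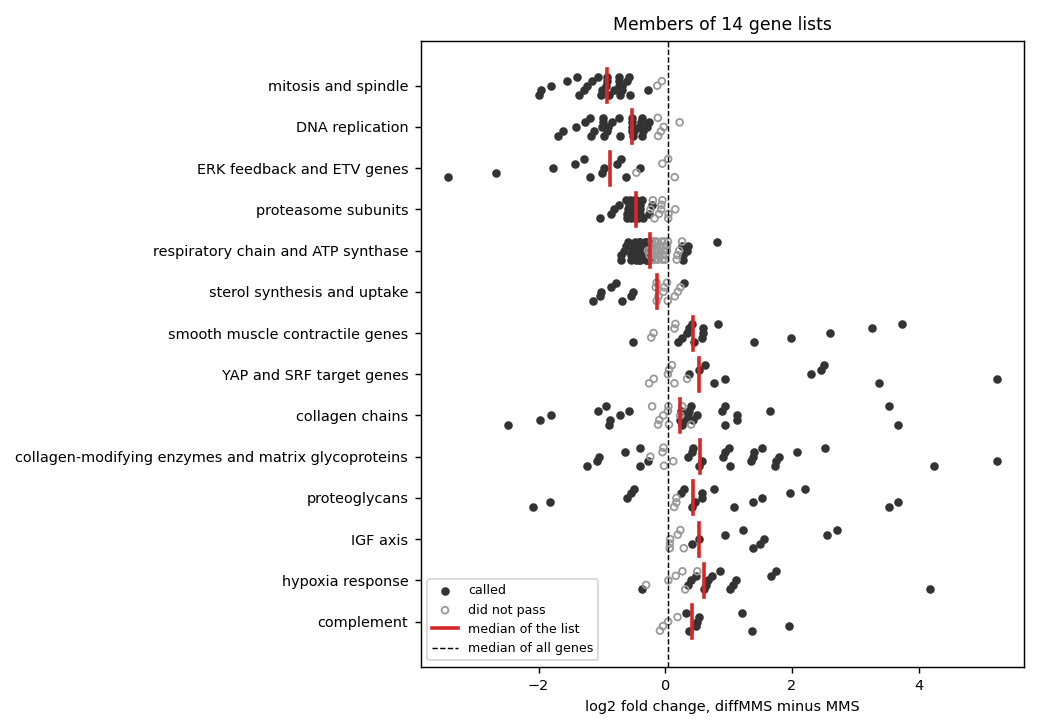
Log2 fold change (diffMMS minus MMS) of each measured member of 14 gene lists, filled where called, with the list's median in red and the median of all genes as a dashed line. Mitotic, replication, ERK feedback and proteasome genes lie mostly below 0, contractile, IGF, hypoxia and complement genes mostly above, and collagens spread from -2.49 to 3.68.

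Matrix genes changed in both directions, and so did the collagen chains. Of 36 collagen genes 17 were higher and 9 lower, with a median of 0.24, and with 862A alone 8 and 7. The largest rises were Col12a1 (3.68), Col8a1 (3.52), Col11a1 (1.65), Col4a5 (1.13) and Col5a1 (1.13). Col12a1, a fibril-associated chain, was at 7.26, 7.15 and 7.15 in MMS and at 10.42, 11.11 and 11.06 in diffMMS. The falls were led by Col5a3 (-2.49), Col15a1 (-1.97) and Col18a1 (-1.81), the last 2 being basement membrane collagens, and Col15a1 went from 10.84, 10.83 and 10.52 to 8.63, 8.85 and 8.79. Col4a1 and Col4a2, which are transcribed from a shared promoter, fell by 0.94 and 0.88, and Col6a1, Col6a2 and Col6a3 by 0.72, 1.06 and 0.87.

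Of 32 genes of collagen-modifying enzymes and matrix glycoproteins 20 were higher and 7 lower, with a median of 0.55, and with 862A alone 16 and 3. Beside Lox, the lysyl hydroxylase gene Plod2 rose from 8.17, 8.34 and 7.87 to 10.13, 10.21 and 10.27, and the prolyl hydroxylase genes P4ha2 and P4ha1 rose by 1.74 and 1.02, while Loxl3 (-0.39), a relative of Lox, and Pcolce2 (-0.28), an enhancer of procollagen processing, fell. Of genes of elastic fibers and microfibrils, Mfap4 (2.53), Ltbp2 (1.79), Fbn2 (1.73), Fbln5 (1.52) and Eln (1.36) rose, and Mfap2 (-0.64) and Emilin1 (-0.40) fell. The members that fell included Tnc (-1.23), a matrix protein of migrating cells, Tgfbi (-1.08), a call lost in 8 settings, and Efemp1 (-1.05). Fn1, the fibronectin gene, did not pass (0.13).

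Proteoglycans showed the same division, with 14 of 22 higher, 5 lower and a median of 0.44. The syndecans, which are heparan sulfate coreceptors of the cell surface, moved in opposite directions. Sdc1, the epithelial syndecan, went from 10.35, 10.26 and 10.18 to 8.03, 8.37 and 8.15, and each of its 4 probe sets fell. Sdc4, a syndecan of focal adhesions, went from 7.01, 7.02 and 7.06 to 9.65, 8.79 and 9.29, with its second probe set at 1.01. Prelp rose by 1.97, the glypican gene Gpc4 by 1.52 and Fmod by 1.39, while Lum fell from 12.39, 12.46 and 12.47 to 10.67, 10.54 and 10.65. Of 20 laminin and basement membrane genes 8 were higher, led by Lama4 (1.31), and 6 lower, led by Col18a1 (-1.81), with Lama2 at -1.09. Col18a1, Col4a1, Col4a2 and Col4a5 are counted both in this list and among the collagen chains. Over all genes the shares were 18.0% and 16.1%.

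Matrix proteases and their inhibitors were also divided, 11 of 24 being higher and 7 lower (7 and 5 with 862A alone). Timp1, an inhibitor of metalloproteinases, fell from 12.40, 12.22 and 12.24 to 10.25, 10.22 and 10.29. Timp3, its matrix-bound relative, rose from 9.16, 9.36 and 9.13 to 10.90, 10.80 and 10.89, and its 3 other probe sets rose by 1.20 to 1.92. Adamts5 and Adamts1 rose by 3.60 and 2.11, while the stromelysin gene Mmp10 (-2.52), Mmp9 (-1.26) and the membrane-bound Mmp14 (-1.14) fell. Of 22 integrin genes 5 were lower (22.7%) and 3 higher (13.6%), shares near the 16.1% and 18.0% over all genes. Itgav, a subunit of vitronectin receptors, went from 11.63, 11.80 and 11.54 to 9.60, 9.68 and 9.67, and Itga5, that of the fibronectin receptor, fell by 0.99. Itga7 (0.48), Itga3 (0.38) and Itgb1 (0.26) rose, the last turning to -0.04 with arrays centred on the median, and with 862A as the lone diffMMS array no integrin was higher.

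Feedback genes of the ERK pathway, which are induced when growth factor receptors signal through this kinase, were lower. Of 16 measured, 12 fell and none rose, with a median of -0.87, beside 16.1% of all genes lower. The genes that fell include Ccnd1 (-1.77), which is also counted above among the regulators of entry into the cycle. Beside Dusp6 (-3.42), the genes Phlda1 (-2.67), Etv4 (-1.42), an ETS factor downstream of FGF receptors, and the inhibitors Spred1 (-1.28) and Spry4 (-0.62) fell. Phlda1 was at 8.67, 8.55 and 8.40 in MMS and between 5.59 and 6.01 in diffMMS. Spry1 (-0.46), Spry2 (0.15), Ier3 (0.05) and Epha2 (-0.05) did not pass. In TMS, Dusp6 lay at 8.67 to 9.57 and Phlda1 at 8.66 to 9.09, above every diffMMS array.

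Other immediate early genes did not share this pattern, and the counts here stand beside 18.0% higher and 16.1% lower over all genes. Of 24 measured, 8 were higher and 6 lower, with arrays centred on the median 4 and 6, and with 862A alone 2 and 5. Beside Egr2, Klf10 fell from 7.56, 7.55 and 7.57 to 5.41, 5.61 and 5.52, Jun by 1.74 and Egr1 by 1.19, while Dusp1 (0.97), Klf4 (0.68), Fosl2 (0.49) and Jund (0.41) rose. Dusp1 was not called in 5 other settings. Myc (0.03) and Fos (-0.47) did not pass. Among ErbB receptors and EGF-family ligands, 4 of 12 fell and 1 rose. The feedback inhibitors Lrig1 and Errfi1 fell by 1.57 and 1.34 and the ligand genes Hbegf and Ereg by 0.97 and 0.77, while the rise of Egfr (0.34) was lost in 6 settings.

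Genes of the insulin-like growth factor axis were higher. Of 15 measured, 9 rose and none fell, with a median of 0.54. Igf1, the ligand, went from 7.44, 7.43 and 7.29 to 10.17, 10.01 and 10.10, or 6.52-fold (standard error 0.0807, adjusted p = 1.5e-09), and its other probe sets rose by 2.09 and 2.28. Of the binding proteins, which hold the ligand in the matrix and fluids, Igfbp3 rose from 5.71, 5.94 and 5.95 to 8.35, 8.16 and 8.73, and Igfbp2, Igfbp7, Igfbp6, Igfbp4 and Igfbp5 by 1.56, 1.49, 1.39, 1.23 and 0.54. The receptor gene Igf1r rose by 0.43 and the adaptor gene Grb10 by 0.94, while Igf2 (0.07) and Irs1 (0.08) did not pass. The TMS arrays were at 6.42 to 6.60 for Igf1, below MMS.

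Of 22 genes of PDGF and FGF ligands and receptors, 11 were higher and none lower. Vegfd, a ligand of lymphatic growth, rose by 2.42, Fgf7, a fibroblast factor that acts on epithelium, by 1.81, and Pdgfc and Vegfa by 1.01 and 0.86. Fgf7 was at 6.87, 6.77 and 6.84 in MMS and at 8.55, 8.62 and 8.74 in diffMMS. Fgf2, Fgfr1, Hgf and Met did not pass, with log2 fold changes of 0.09, 0.14, -0.07 and 0.21.

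Of 27 TGF-beta and BMP genes 8 were higher and 6 lower (7 and 8 with arrays centred on the median, 5 and 4 with 862A alone). The betaglycan receptor gene Tgfbr3 rose by 1.57 and Tgfb3 by 0.73, while Tgfbr1, the kinase receptor, fell by 1.47, Tgfb1 by 1.18, Bmp2 by 1.59 and the inhibitor of differentiation Id2 by 1.10. Id3 had a log2 fold change of 1.04 and did not pass. In the Notch pathway 4 of 20 fell and 1 rose, beside 16.1% lower and 18.0% higher over all genes. The receptor Notch1 went from 8.45, 8.49 and 8.46 to 6.86, 6.68 and 6.97, with its second probe set at -0.23 and not called, and Notch2 and Notch3 fell by 0.55 and 0.46. Ligands Jag1 (0.21) and Dll1 (0.15) and the target Hes1 (-0.22) did not pass.

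Retinoid genes moved in both directions, and the counts here stand beside 18.0% higher and 16.1% lower over all genes. The cellular carriers Crabp1 and Crabp2 fell by 3.47 and 1.36, the retinol uptake receptor Stra6 by 1.08 and the receptor Rarb by 0.56. The enzymes that make retinoic acid, Aldh1a1 and Aldh1a2, rose by 0.89 and 0.46, the degrading enzyme Cyp26a1 by 0.39 and the receptor genes Rarg, Rxrb, Rxra and Rara by 0.44, 0.51, 0.29 and 0.23. In all 9 of 17 were higher and 4 lower, and with 862A as the lone diffMMS array 4 and 3. Among 26 semaphorin, plexin and neuropilin genes, 7 were higher and 5 lower (2 and 2 with 862A alone). Of the 26 genes, 26.9% were thus called higher and 19.2% lower. Sema3c rose by 1.58 and Sema7a, a membrane-anchored semaphorin, fell from 10.33, 10.08 and 10.19 to 8.29, 7.87 and 7.77. Of 19 Eph and ephrin genes 3 were higher, led by Ephb3 (1.03), and 2 lower, shares below those over all genes.

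Glycolytic and mitochondrial genes moved in opposite directions. Of 21 hypoxia response genes 14 were higher and 1, Kdm3a (-0.36), was lower, with a median of 0.61, and of 16 glycolytic genes 9 were higher and 1, Pfkp (-0.45), was lower, with a median of 0.33. Adm went from 5.19, 5.36 and 5.51 to 9.88, 9.29 and 9.40. Hif1a, the oxygen-regulated factor itself, rose by 1.12, the mitophagy gene Bnip3 by 1.67, the phosphofructokinase gene Pfkl by 1.56, the lactate exporter Slc16a3 by 1.28 and Pdk1, which keeps pyruvate out of the mitochondrion, by 0.67. Car9, a gene strongly induced by lack of oxygen in many cells, had a log2 fold change of 0.05, and Slc2a1, the glucose transporter, of 0.17, and neither passed. With arrays centred on the median 4 glycolytic genes were higher and 2 lower, and with 862A alone 4 and none. The 2 lists share Pdk1 and Slc2a1.

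Of 75 genes of the respiratory chain and ATP synthase, 36 were lower and 6 higher, with a median of -0.24. The falls were small and spread over the complexes, from Ndufa12 (-0.70), Cox7a2 (-0.69) and Ndufb8 (-0.64) to Ndufb2 (-0.22). Ndufv3 (0.82) was the largest rise. With the values as deposited 55 were lower and 3 higher, with arrays centred on the median 55 and 2, and with 862A as the lone diffMMS array 14 and 2. The size of this list's shift thus depends on the scaling, and its direction did not turn under these 3 settings.

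Genes of lipid synthesis fell in part. Scd1, which makes monounsaturated fatty acids, went from 11.39, 11.69 and 11.56 to 8.34, 8.77 and 8.52, and Elovl6, Scd2 and Fasn fell by 1.49, 1.23 and 0.68. Of 18 fatty acid genes 7 were lower and 3, Fads3 (1.30), Me1 (0.69) and Acacb (0.23), were higher. The call of Acacb was lost in 5 settings. Of 20 genes of sterol synthesis and uptake 8 were lower, from Fdps (-0.52) to Hmgcs1 (-1.15), with Cyp51 at -1.03 and Idi1 at -1.02. Sc5d (0.29) alone was higher, a call lost in 7 settings. Cyp51, which demethylates lanosterol on the way to cholesterol, was at 8.37, 8.43 and 8.35 in MMS and 7.26, 7.51 and 7.28 in diffMMS. The letters TCACNCCAC, a sterol regulatory element, were found in the promoters of 1 of 16 genes of this list (6.25%). The share was 1.44% over all 27025 genes with a promoter, measured here or not. Srebf1 (-0.21) and Srebf2 (0.24), the transcription factor genes of these pathways, did not pass.

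Genes of serine synthesis and targets of ATF4, a factor of amino acid shortage and stress, were higher in 12 of 25 cases and lower in 2, with a median of 0.27, beside 18.0% and 16.1% over all genes. Trib3 rose from 6.79, 7.06 and 7.01 to 8.46, 8.78 and 8.38, Atf5 by 1.29, Ddit3 by 1.18, the asparagine synthetase gene Asns by 0.86 and Atf4 itself by 0.82. Shmt2 (-0.41) and Psph (-0.49), both enzymes of serine and glycine synthesis, fell, and the call of Psph was lost in 5 settings. Targets of the antioxidant factor NRF2 and glutathione enzymes were divided, 6 of 23 being higher and 10 lower (5 and 3 with 862A alone). Gsta4 (-1.48), Txnrd1 (-1.34) and Gstp1 (-0.92) fell, while Gstt1 (0.84), Gclm (0.82) and Gstm2 (0.77) rose.

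Proteasome genes fell together by a modest amount. Of 38 subunit genes 28 were lower and none higher, with a median of -0.46. The immunoproteasome subunits Psmb10 and Psmb8 led, at -1.03 and -0.85, followed by the ATPase subunits Psmc1 (-0.80), Psmc5 (-0.73) and Psmc3 (-0.63). Psmb10 was at 8.61, 8.98 and 8.82 in MMS and at 7.73, 7.81 and 7.79 in diffMMS. The second probe set of Psmc1 gave 0.00. With the values as deposited 32 were lower and 1 was higher, and with 862A as the lone diffMMS array 19 and none.

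Ribosomal protein genes had no direction that held under other scalings. Of 45 measured, 11 were higher and 3 lower with a median of 0.10, and with arrays centred on the median 5 were higher and 7 lower with a median of -0.02. With 862A alone 3 were higher and none lower. Rpl27a rose by 1.54, and by 0.28 with a further probe set. Of 21 genes of nucleolar ribosome assembly 7 were lower, led by Rrs1 (-0.56), and 1 was higher, with 3 and none for 862A alone. Lysosomal genes were lower in 11 of 26 cases and higher in 3 (7 and 1 with 862A alone). Ctsk, the collagen-degrading cathepsin, went from 11.68, 11.95 and 11.76 to 10.34, 9.63 and 9.66, and the galactosidase gene Gla (-1.73) and Ctsb (-1.09) fell. Of 12 cytosolic heat shock genes 5 fell, each by less than 0.5, and 2 rose, Hspb1 (1.29) and Hspb8 (0.37), with none and 1 for 862A alone. Of 19 folding genes of the endoplasmic reticulum 4 were lower and 2 higher, and with arrays centred on the median 11 and 1. Shares over all genes were 16.1% lower and 18.0% higher.

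**Figure D5:**
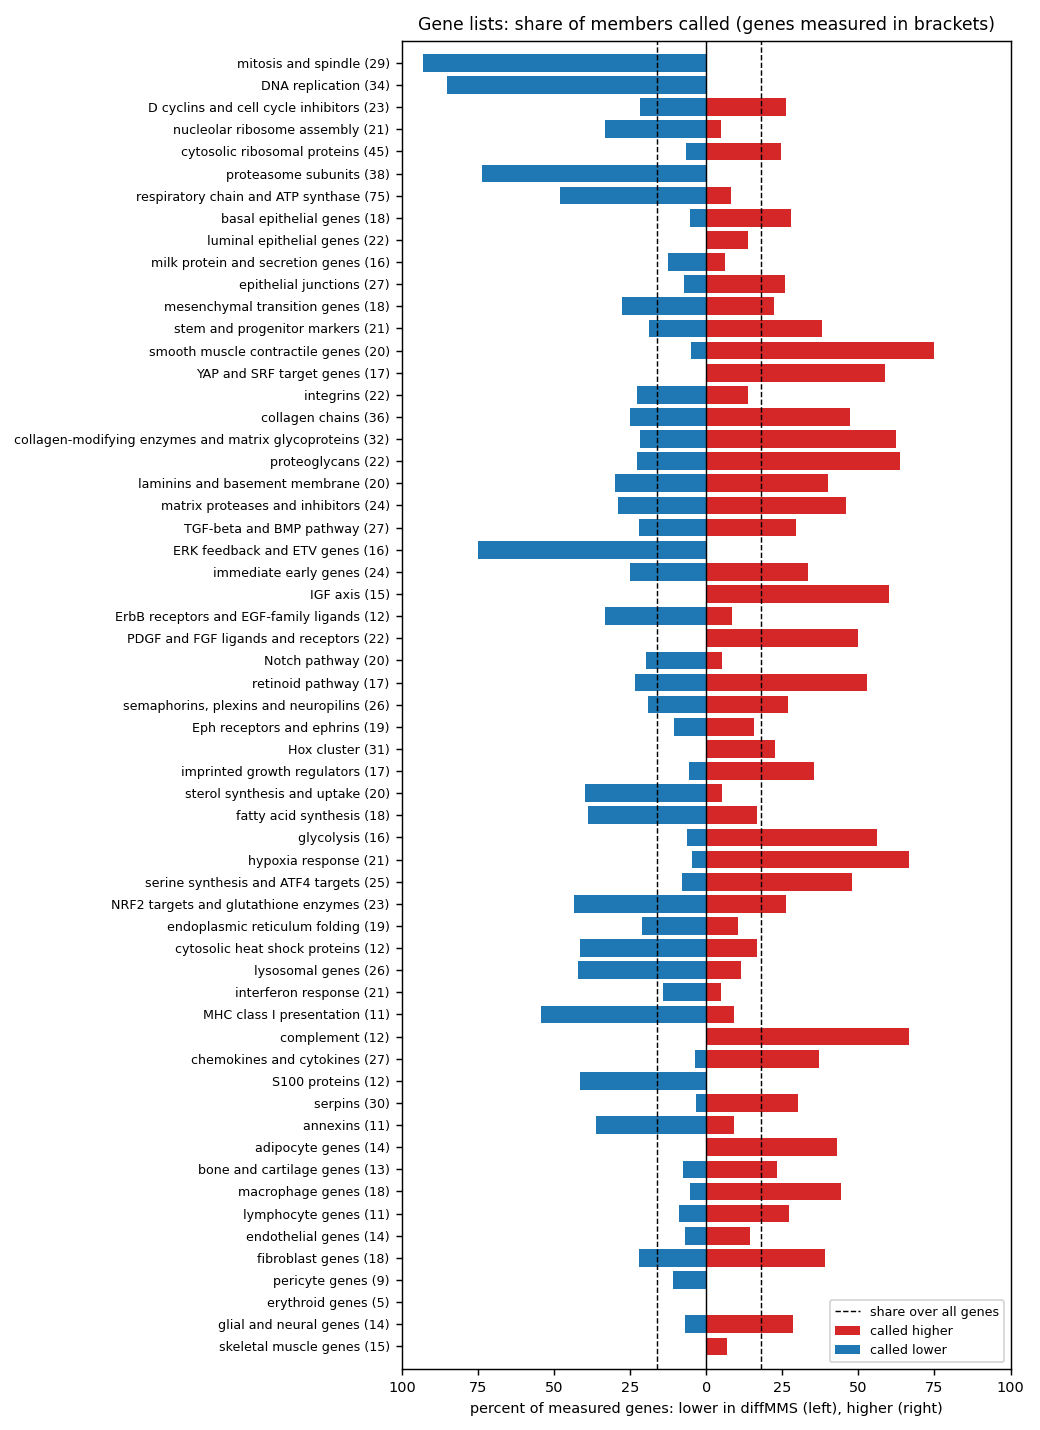
Percent of the measured members of each of 59 gene lists called higher (red, right) and lower (blue, left) in diffMMS, with the number measured in brackets and the shares over all genes, 18.0% and 16.1%, as dashed lines. Mitosis, DNA replication, ERK feedback and proteasome genes have the longest bars to the left, and contractile, hypoxia, complement and proteoglycan genes to the right.

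Most called genes of the complement and cytokine lists rose, and most called genes of antigen presentation fell. Of 12 complement genes 8 were higher and none lower, with a median of 0.43. Serping1, the inhibitor of the first complement component, went from 8.34, 8.56 and 8.74 to 10.48, 10.44 and 10.61, and Masp1 and C1s1 rose by 1.36 and 1.22. With 862A as the lone diffMMS array 4 of the 12 were higher. Of 27 chemokine and cytokine genes 10 were higher and 1 lower (6 and 1 with 862A alone). Cxcl12, a chemokine of stromal cells, rose by 1.51, Ccl9 by 1.15 and Cxcl5 by 1.03, while Ccl2, a monocyte attractant, went from 9.31, 9.58 and 9.67 to 7.22, 7.42 and 7.27. The chemokine Ccl12, named above among the largest falls (-3.03), is not a member of this list and is not in its counts.

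Of 11 genes of MHC class I presentation 6 were lower (3 with 862A alone), with a median of -0.42, and 1, H2-M3 (0.23), was higher, a call lost in 8 settings. B2m, the shared light chain, fell by 0.55 and the heavy chain genes H2-D1 and H2-K1 by 0.49 and 0.42. The immunoproteasome genes Psmb8 and Psmb10 are members of this list too. Of 21 interferon response genes 1 was higher and 3 were lower, Oasl2 (-1.01), Trim25 (-0.65) and Gbp2 (-0.37), beside 18.0% and 16.1% over all genes.

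Further gene families are given beside the same shares over all genes, 18.0% higher and 16.1% lower. Of 30 serpin genes 9 were higher and 1 lower. Serpinb9, an inhibitor of granzyme B, rose from 7.55, 7.54 and 7.48 to 9.52, 9.86 and 9.85, and the acute phase gene Serpina3n by 2.02. Of 12 S100 genes 5 were lower (3 with 862A alone), led by S100a6 (-1.27), S100a16 (-1.25) and S100a1 (-1.24), and of 11 annexins 4 were lower, led by Anxa1 (-1.30) and Anxa5 (-1.14), and 1 was higher. Of 31 Hox genes 7 were higher, a share near that of all genes, and none lower (3 and none with 862A alone), the largest being Hoxc8 (0.94), Hoxc6 (0.54) and Hoxa7 (0.50). Among 17 imprinted growth regulators 6 were higher and 1 lower. Plagl1, a zinc finger gene that restrains growth, rose from 7.26, 7.80 and 7.22 to 9.20, 9.33 and 9.30, while Dlk1, an inhibitor of fat cell formation, fell from 10.52, 10.36 and 9.99 to 8.38, 8.17 and 8.01.

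Markers of other cell types were examined because a culture can change its makeup. Their counts stand beside 18.0% higher and 16.1% lower over all genes. Of 14 adipocyte genes 6 were higher and none lower (3 and none with 862A alone). Lpl, the lipoprotein lipase gene, went from 9.32, 9.57 and 9.72 to 12.17, 11.97 and 11.99, and Cebpd rose by 1.28, while the defining genes Adipoq (0.01), Fabp4 (-0.11) and Pparg (-0.16) did not pass. The mean log2 intensity of the 14 genes was 6.42 to 6.46 in MMS and 6.83 to 6.86 in diffMMS. Of 18 macrophage genes 8 were higher and 1, Cd68 (-0.51), was lower, and their mean was 5.96 to 6.03 in MMS and 6.50, 6.35 and 6.09 on 861A, 862A and 863A. Csf1r (0.63), Tyrobp (0.42) and Lyz1 (1.13) rose, and Ptprc (0.05) and Adgre1 (0.09), which define blood and macrophage cells, did not pass. Tyrobp was not called in 5 settings, Lyz1 in 6, and with 862A as the lone diffMMS array 2 of the 18 were higher. The part of such cells in the complement, chemokine and lysosomal results was not tested.

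Endothelial genes were called in 3 of 14 cases, 2 higher (Egfl7 with 0.86 and Flt1 with 0.51) and 1 lower. These shares were below the 18.0% and 16.1% over all genes, and Pecam1, Cdh5, Kdr and Tek did not pass. Of 11 lymphocyte genes 3 were higher (none with 862A alone) and 1, Cd79b (-1.37), was lower, while Cd3e (0.28) and Cd79a (0.20) did not pass. Of 14 glial and neural genes 4 were higher, with the adhesion molecule Ncam1 going from 7.00, 6.84 and 6.91 to 9.56, 9.39 and 9.54, and 1, Nes (-0.54), was lower. Of 13 bone and cartilage genes 3 were higher and 1 lower, Mgp, an inhibitor of calcification (-1.61). Of 9 pericyte genes Notch3 alone was called and fell. Among 15 skeletal muscle genes Myh2 (0.17) alone was called, and this was lost in 6 settings. None of the 5 erythroid genes passed, with log2 fold changes from -0.04 to 0.21.

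Several genes had probe sets that moved apart. Of 1286 genes with 2 or more called probe sets, 115 had probe sets called in opposite directions. Ezr, the ezrin gene, which links membrane to actin, gave 0.57 with its main probe set and -2.31 with another, and Hnrnpab gave -0.92 to 2.02. Gas5, a noncoding RNA that accumulates in resting cells, rose by 2.18 and 2.17 with 2 probe sets and fell by 0.26 with another, and the Fc receptor gene Fcgr2b gave 0.88 and -1.68. The direction given for these 4 genes depends on the probe set.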

How the data were processed

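Total RNA of 3 independent cell populations of each kind (MMS, diffMMS and TMS) was hybridized to MOE430A Gene Chips, 1 array each. The authors deposited 1 intensity per probe set and array on a linear scale, already summarized and scaled in GeneSpring; the method of that summary and scaling is not given in the sources used here. Array medians lay between 83.8 and 88.3. No detection calls were used, so that dim probe sets may hold mostly background, and the number of arrays limits the precision.

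From these, log2 of intensity plus 8.641 (10% of the median) was quantile normalized and fitted with limma 3.58.1 (R 4.3.3; lmFit on all 9 arrays, eBayes with an intensity trend, 6 residual degrees of freedom, two-sided tests, Benjamini-Hochberg adjustment over 22626 probe sets after removal of 64 controls). Levels shown are normalized log2 intensities. Of the probe sets, 20380 had 1 gene symbol, 691 several and 1555 none; a gene was represented by its probe set of the largest mean over the 6 arrays. The script was tested on simulated data. Figures used matplotlib 3.10.9 (Python 3.11.15).

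The 59 gene lists, the comparison and the rules were chosen with earlier results of these data known. Genes named were the 15 largest rises and falls among called genes without overlap, up to 4 of each direction per list, members moving against their list, defining markers and all members of lists of 10 or fewer, and further list members were named after their values were seen. Alternatives tried were centring of each array on its median, no normalization beyond that of the deposited values, other pseudocounts (none, 25% of the median), removal of probe sets below the 40th percentile, the 6 arrays alone, other variance models, the probe set of the largest moderated t, and each array left out. The use of 862A as the lone diffMMS array was chosen after seeing the data. The title of MMS array 858A carries a suffix R whose meaning is not stated. Promoters were taken from RefSeq (GRCm38.p6).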

Additional observations from a re-analysis of the deposited data

How the results depend on the processing

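With 862A as the lone diffMMS array, 1417 probe sets were higher and 1772 lower, against 3664 and 3831. Leaving out 1 array at a time gave 2315 to 3175 probe sets higher and 2911 to 3404 lower, the lowest count without MMS array 859A. Genes changed by 1 or more (log2) numbered 163 to 221 higher and 215 to 341 lower over all settings. Centring on the median gave 2875 higher and 4691 lower (38.0% of calls higher, against 48.9%), and the values as deposited 4238 and 4142 (50.6%); the median log2 fold change of all probe sets was 0.0115 and 0.0597, against 0.0298. Atp5d turned to -0.014 and Itgb1 to -0.04 under centring. Of 342 named genes that were called, 312 had a value under all 17 settings, and 216 of these kept the call; the other 30 were among the dim probe sets removed in 1 setting, and 10 of them kept the call under the remaining settings; 109 calls were lost with 862A alone, 48 without 859A and 43 without 860A. Calls lost in 8 or 9 settings were those of Cldn3, Col2a1, H2-M3, Lipa, Ltf, Pgk1, S100a4, Tgfbi and Zeb1. The majority direction turned under centring for ribosomal proteins (5 higher, 7 lower), D cyclins and inhibitors (5 and 7), TGF-beta and BMP genes (7 and 8), immediate early genes (4 and 6) and semaphorins (5 and 6). Of the 118 counts of the 59 lists (higher and lower), 55 moved by over 1.5 times with 862A alone, 27 under centring and 24 with the values as deposited; lysosomal genes lower, for example, numbered 7, 18 and 17, against 11, and MHC class I genes lower 3, 8 and 7, against 6. The causes were not tested. No paired analysis was possible because the labels give the groups no shared replicate numbers.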
